A study of Homo sapiens with 8 samples.

Results

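Solute carriers are membrane proteins that move ions, metals and metabolites across the plasma membrane and the membranes of organelles. Of the 289 genes with a solute carrier symbol that were listed in U937 cells, 252 remained once the SLC1, SLC3, SLC7, SLC38, SLC43 and SLC46 families and SLC19A1, SLC2A1, SLC2A3, SLC16A3, SLC11A2, SLC40A1, SLC30A1 and SLC39A14 had been set aside. The 147 described here had a mean of at least 1 TPM (a level scaled to gene length and to the library) over all 8 libraries, among 10096 genes with a symbol that reached this level. They were thus chosen by their measured TPM, and their levels are given as a description. U937 is an established human line, labelled monocytic. Both lines are labelled as SLC19A1-/- (SLC19A1 is the reduced folate carrier), and each carried a doxycycline-inducible, Flag-tagged transporter, SLC7A2 in the SLC7A2 line and SLC7A1 in the SLC7A1 line. The groups were the SLC7A2 line with doxycycline (dox, 1 µg/mL for 24 h), the SLC7A2 line without it, the SLC7A1 line with it and the SLC7A1 line without it, each with 2 libraries of poly(A) RNA, numbered 1 and 2. The labels name no line free of a construct, so an effect of the drug and one of the transporters cannot be told apart, nor can the SLC7A1 and SLC7A2 lines be separated from how each was derived. They do not say that libraries of a group were separate cultures, and a p-value here reflects only how these samples scatter, which may be technical scatter.

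As background, carriers of the SLC25 family span the inner mitochondrial membrane and exchange nucleotides, organic acids, amino acids and cofactors between cytosol and matrix. Nucleotide sugar carriers of the SLC35 family supply the Golgi and endoplasmic reticulum (ER) for glycosylation, SLC39 proteins bring zinc and related metals into the cytosol, and SLC30 proteins move zinc out of it into vesicles or the extracellular space. Carriers of the lysosomal membrane return amino acids, peptides, sugars and nucleosides from digested material, and in myeloid cells some of them serve innate immune signalling from the endolysosome.

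The libraries held 17309132 to 18441833 expected counts, so 3 counts were 0.163 to 0.173 CPM, where CPM is a count relative to the library total. In the SLC7A2 line its construct had 264 and 4947 CPM with dox, against 0.563 and 9.65 CPM without it, in libraries numbered 1 and 2. The SLC7A1 construct had 845 and 367 CPM with dox, against 0.279 and 0 CPM without it, in its own line. SLC19A1 kept 120 to 163 CPM, and counts do not show whether an edit disrupted it. Of 15 monocytic markers 12 reached 1 TPM, with under 1 TPM for CSF1R, CD14 and MPO, and their summed level was 2268 to 3653 TPM in the SLC7A2 line and 3163 to 4268 TPM in the SLC7A1 line. T cell markers summed to at most 0.31 TPM. B cell markers summed to 21.6 to 34.7 TPM, nearly all from CD79A, with MS4A1 at 0, and of 6 erythroid markers only KLF1 was listed. Fibroblast markers summed to 14.8 TPM in the SLC7A2 library without dox numbered 2, and to at most 2.11 TPM in the others. Both SLC7A2-line libraries numbered 2 stood apart from the other 6 on the first principal component of log2 CPM, at 68.1 with dox and 55.3 without it, against -52.7 to -3.67. Fitted values that moved by over 1.5 times without them are given both ways where the carrier is described. For SLC52A2 and SLC5A6 the CPM by library number are given in place of the full fitted value.

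The 250 bases before the annotated gene start are shown for the 2 carriers with the highest levels, SLC25A6 and SLC25A5, and for SLC25A20 and SLC27A4, from the set that a second test separated between the lines. Capitals mark GC boxes (GGGCGG) and CCAAT boxes (CCAAT), searched on both strands, so that CCGCCC and ATTGG are the same motifs on the other strand. Sequences are from RefSeq in GRCh38.p14, written from 5′ to 3′ on the strand of the gene.
SLC25A6: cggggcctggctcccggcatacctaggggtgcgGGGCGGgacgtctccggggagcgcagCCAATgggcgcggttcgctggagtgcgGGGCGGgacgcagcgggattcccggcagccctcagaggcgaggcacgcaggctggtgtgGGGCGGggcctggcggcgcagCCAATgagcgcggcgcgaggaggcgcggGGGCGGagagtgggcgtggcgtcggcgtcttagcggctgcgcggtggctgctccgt
SLC25A5: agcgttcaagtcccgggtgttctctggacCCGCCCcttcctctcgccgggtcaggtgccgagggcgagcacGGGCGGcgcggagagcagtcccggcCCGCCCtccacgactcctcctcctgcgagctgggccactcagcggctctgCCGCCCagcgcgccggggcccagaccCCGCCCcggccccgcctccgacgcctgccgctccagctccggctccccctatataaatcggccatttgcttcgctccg
SLC25A20: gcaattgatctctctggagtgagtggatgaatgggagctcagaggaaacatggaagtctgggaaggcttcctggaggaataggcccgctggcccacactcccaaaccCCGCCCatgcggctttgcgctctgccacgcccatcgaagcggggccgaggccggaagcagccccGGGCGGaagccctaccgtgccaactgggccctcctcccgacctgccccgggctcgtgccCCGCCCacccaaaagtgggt
SLC27A4: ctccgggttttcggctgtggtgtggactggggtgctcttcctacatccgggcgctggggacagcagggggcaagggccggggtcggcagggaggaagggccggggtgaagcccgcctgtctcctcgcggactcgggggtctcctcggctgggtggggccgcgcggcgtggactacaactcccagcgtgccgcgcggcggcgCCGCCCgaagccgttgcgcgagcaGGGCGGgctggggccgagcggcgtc
They lie at chrX:1392114-1392363 on the minus strand, chrX:119468194-119468443 on the plus strand, chr3:48898883-48899132 on the minus strand and chr9:128340277-128340526 on the plus strand. The SLC25A6 window holds 4 GC boxes and 2 CCAAT boxes, and the SLC25A5 window 5 GC boxes and no CCAAT box. SLC25A20 has 3 GC boxes and SLC27A4 has 2, and neither has a CCAAT box. Of the 147 carriers 118 had an entry in the promoter table, whose start is the outer end of the gene for 98 and lies inside it for 20, and 91 of the 118, or 77.1%, held a GC box in this window, against 42.3% of all 27305 promoters. The CCAAT box was in 47 of 118, or 39.8%, against 33.0% of all promoters. An E-box (CACGTG) was in 11.0% against 6.49%, and the core of the amino acid response element (TGATGCAA) was in 0 of 118 against 0.820%. These are matches of letters, and all promoters include those of genes that U937 cells do not express.

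The carriers covered a wide range of levels, with a median of 9.80 TPM. Of the 147, 75 lay between 1 and 10 TPM, 49 between 10 and 50, 13 between 50 and 100, and 10 at 100 TPM or more. The 3 highest held 35.2% of the summed TPM of the set and the 10 highest 54.7%. The carriers come from 39 numbered families, with 35 from SLC25, 17 from SLC35 and 10 from SLC39. By compartment 37 were mitochondrial, 45 of the plasma membrane, 30 of the ER or Golgi, 12 of lysosomes or endosomes and 1 of the peroxisome, and 22 were of uncertain place. The mitochondrial carriers held 49.9% of the summed TPM, the plasma membrane 21.5%, the ER and Golgi 14.4%, and the lysosomes and endosomes 2.76%. The carriers just inside the threshold were SLC2A6 at 1.01 TPM, SLC25A45 at 1.14 and SLC23A2 at 1.14, and those just outside were SLC15A2 at 0.958, SLC12A2 at 0.941 and SLC35A3 at 0.925 TPM. Of the 105 listed carriers below the threshold, 65 had under 0.1 TPM.

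**Figure D1:**
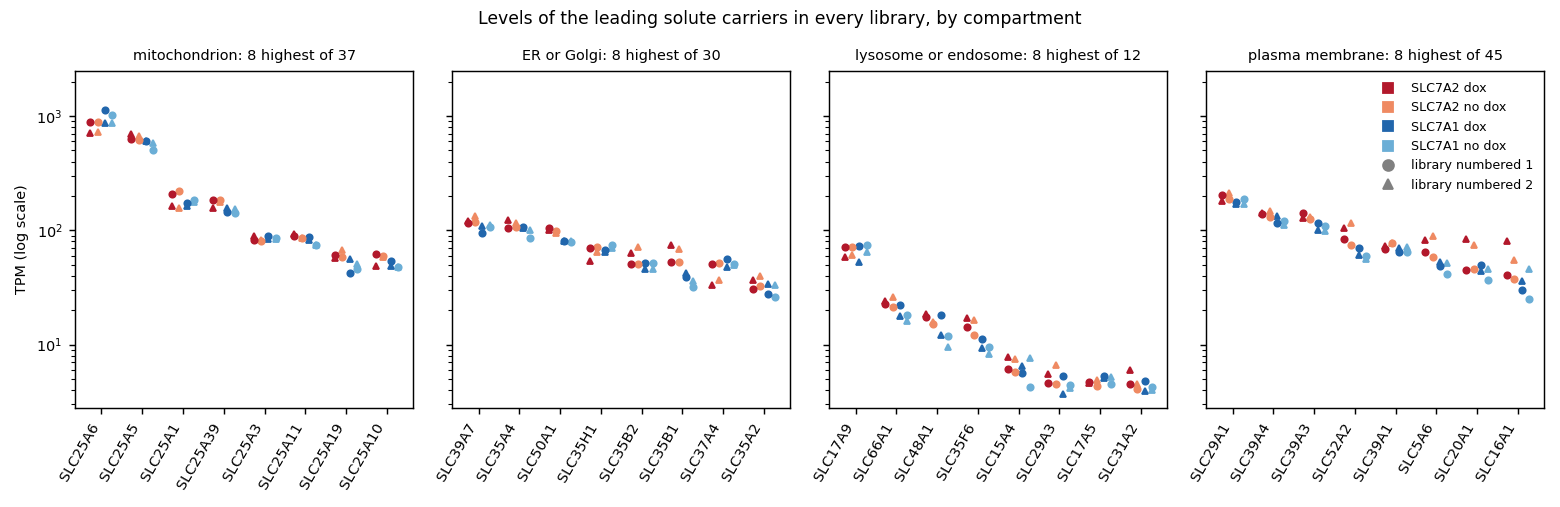
TPM on a log scale (y) of the 8 highest solute carriers in each of 4 compartments (x), with 1 point per library, coloured by group and shaped by library number. SLC25A6 and SLC25A5 stand above all others at 718 to 1136 and 507 to 690 TPM, and points of 1 carrier mostly lie close together compared with the range between carriers.

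Among mitochondrial carriers the ADP/ATP translocases led. SLC25A6 (ANT3, Entrez 293) exchanges matrix ATP for cytosolic ADP, and had 887 and 718 TPM in SLC7A2-line cells with dox and 891 and 723 TPM without it, and 1136 and 878 TPM in SLC7A1-line cells with dox and 1017 and 865 TPM without it. In every group the library numbered 2 was the lower. SLC25A5 (ANT2, Entrez 292) has the same activity and had 630 and 690 TPM in SLC7A2-line cells with dox and 623 and 665 TPM without it, and 606 and 602 TPM in SLC7A1-line cells with dox and 507 and 585 TPM without it. The ratio of SLC25A6 to SLC25A5 TPM was 1.04 to 1.43 in the SLC7A2 line and 1.46 to 2.01 in the SLC7A1 line, without overlap (1.41 to 1.43 in the SLC7A2-line libraries numbered 1), while their sum was 1387 to 1516 TPM in the SLC7A2 line and 1450 to 1742 TPM in the SLC7A1 line. The third translocase of this group, SLC25A4 (ANT1), known for its place in heart and muscle, averaged 0.0138 TPM. The longest identical stretch between the SLC25A5 and SLC25A6 transcripts was 29 bases, below the read length of 150. The citrate carrier SLC25A1 followed at 181 ± 22.5 TPM, then SLC25A39, which imports glutathione, at 163 ± 17.2 TPM (SD, n = 8 libraries). The phosphate carrier SLC25A3 had 84.3 ± 3.42 TPM and the 2-oxoglutarate/malate carrier SLC25A11 had 83.8 ± 6.78 TPM (SD, n = 8). The effective length, to which TPM is scaled, had a median of 5721 bases for SLC25A3 and 1420 for SLC25A11. By mean CPM, not TMM-normalised, SLC25A3 had 409, against 101 for SLC25A11, 196 for SLC25A1 and 178 for SLC25A39. SLC25A3 ranked 3 by CPM among the carriers described, against 12 by TPM, so its place in this order rests on the length estimate. Carriers of the amino acid class in mitochondria included SLC25A38, which supplies glycine to haem synthesis, at 49.4 TPM, and the aspartate/glutamate carrier SLC25A12 at 31.3 TPM. Of the 2 mitoferrins, which import iron, SLC25A28 had 39.3 TPM and SLC25A37, known for its role in erythroid cells, had 34.7 TPM. SLC25A29 and SLC25A15, which carry basic amino acids and ornithine into mitochondria, had 23.0 and 12.9 TPM.

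At the plasma membrane the highest level was that of SLC29A1 (ENT1), the equilibrative nucleoside transporter, at 187 ± 15.1 TPM. The zinc importers SLC39A4 and SLC39A3 followed at 130 ± 12.8 and 119 ± 15.5 TPM (SD, n = 8). The median effective length was 410 bases for SLC39A4 and 1364 for SLC39A3. By mean CPM, not TMM-normalised, SLC39A4 had 45.5 and ranked 39 among the carriers described, against 7 by TPM. SLC39A3 had 137 CPM and ranked 11, against 8 by TPM. The place of SLC39A4 in this order thus rests on the length estimate. Metals were the class with the most carriers of known substrate, 22, of which 8 are of the plasma membrane, 7 of the ER or Golgi and 5 of mitochondria. The riboflavin transporter SLC52A2 had 78.2 ± 21.6 TPM and SLC5A6, which takes up biotin and pantothenate, had 61.1 ± 16.5 TPM (SD, n = 8). Among carboxylate and phosphate carriers, the phosphate importer SLC20A1 had 53.2 TPM and the lactate and pyruvate transporter SLC16A1 (MCT1) 43.8 TPM. The fructose transporter SLC2A5 had 41.9 TPM. Among ion carriers the anion exchanger SLC4A2 had 39.8 TPM, the anion carrier SLC26A9 34.0 TPM and SLC12A9 18.9 TPM. SLC44A2, a choline transporter, had 16.4 TPM, and the organic cation class had SLC22A16 at 11.8, SLC22A4 (OCTN1, ergothioneine) at 4.76 and SLC22A5 (OCTN2, carnitine) at 2.37 TPM.

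Inside the secretory pathway SLC39A7, which releases zinc from the ER, led at 114 ± 11.0 TPM, with SLC35A4, a Golgi family member, at 106 ± 10.9 and the sugar carrier SLC50A1 at 90.1 ± 10.2 TPM (SD, n = 8). All 9 carriers of nucleotide sugars and of the sulfate donor belong here, and after SLC35A4 they were led by SLC35H1 at 67.0 TPM and SLC35B2, which brings the sulfate donor into the Golgi, at 54.1 TPM. SLC37A4, which brings glucose 6-phosphate into the ER, had 47.1 TPM, and the bile acyl-CoA synthetase SLC27A5 had 17.8 TPM. In lysosomes and endosomes SLC17A9, which loads nucleotides into vesicles, had 66.0 ± 8.01 TPM, SLC66A1 (PQLC2), which exports cationic amino acids, 21.0 ± 3.39 TPM, and the haem carrier SLC48A1 (HRG1) 14.9 ± 3.32 TPM (SD, n = 8). SLC15A4, a lysosomal peptide and histidine carrier linked to signalling of endosomal receptors, had 6.40 TPM, against 1.55 TPM for its relative SLC15A3. The peroxisomal carrier SLC25A17 had 17.2 TPM. Carriers of uncertain place were led by SLC75A1 (MFSD10) at 308 ± 28.5 TPM, SLC66A2 at 75.5 TPM and SLC33A2 (MFSD3) at 31.1 TPM.

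The spread of the carriers was close to that of other genes. The SD of log2 CPM over the 8 libraries had a median of 0.230 for the 147 carriers and 0.236 for all 11567 tested genes with a symbol. The steadiest were SLC25A5 and SLC35A4, with SDs of 0.066 and 0.079. SLC23A2, an ascorbate transporter, was the most variable. It had 12.7 and 326 expected counts in SLC7A2-line cells with dox and 1.29 and 259 without it, and 0 and 11.0 counts in SLC7A1-line cells with dox and 0 and 307 without it. The 3 highest values were all in libraries numbered 2, and its fitted fold changes turned with single libraries. It is kept in the counts over the 147. After it came SLC2A6, with an SD of 0.81, and SLC25A13 (citrin), the second mitochondrial aspartate/glutamate carrier, with 0.68. SLC25A13 had 33.1 and 53.3 TMM-normalised CPM in SLC7A2-line cells with dox and 32.4 and 49.1 without it, and 17.3 and 32.3 CPM in SLC7A1-line cells with dox and 13.8 and 39.5 without it, so the library numbered 2 was the higher in all 4 groups. SLC25A25 differed the other way between the lines: number 2 minus number 1 was 0.51 and 0.34 on the log2 scale in the SLC7A2 line with and without dox, and -1.27 and -1.05 in the SLC7A1 line. Across the 146 carriers other than SLC23A2, this difference correlated between the dox and no dox groups of a line at a Pearson r of 0.66 in the SLC7A2 line and 0.68 in the SLC7A1 line, and at 0.14 to 0.49 between groups of different lines. These correlations are over genes that share libraries and are a description.

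**Figure D2:**
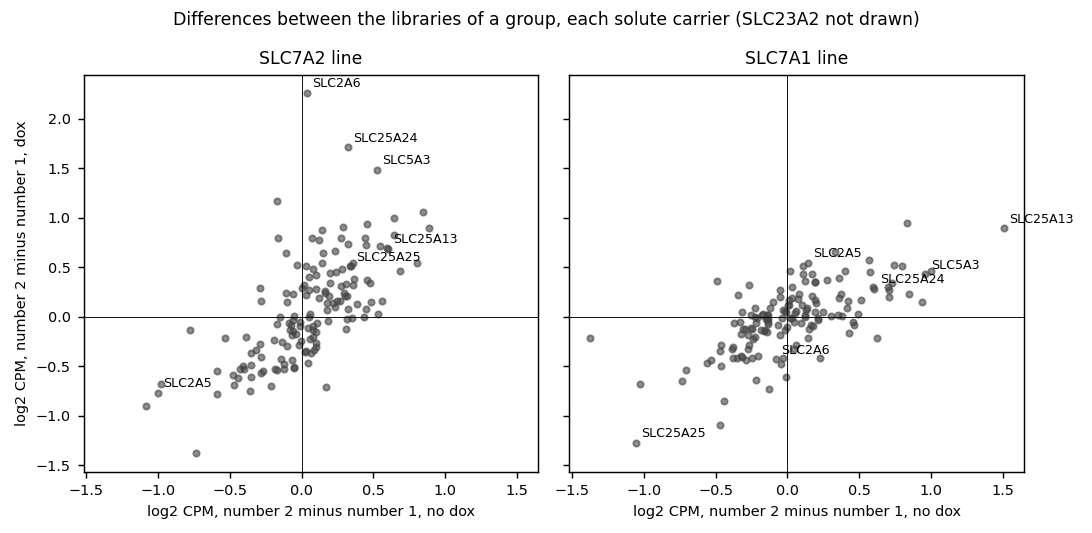
Difference in log2 CPM between the libraries numbered 2 and 1 of a group, with dox (y) against without dox (x), in the SLC7A2 line and the SLC7A1 line, with 1 point per solute carrier. In both panels points run from lower left to upper right (r of 0.66 and 0.68), and SLC2A6, SLC25A24 and SLC5A3 stand out in the SLC7A2 line by their dox libraries.

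The first question was whether the carriers respond to dox in both lines together. The edgeR quasi-likelihood test with Benjamini-Hochberg adjustment at 0.05 called 0 of 147, and 0 of all 17503 tested entries (0%). The lowest edgeR adjusted p of any entry was 0.132 here, 0.757 within the SLC7A2 line and 0.138 within the SLC7A1 line. The induced constructs were thus not called either, and 0 calls do not show that the carriers failed to respond. Without adjustment 1 carrier (0.680%) had an edgeR p under 0.05, against 261 entries (1.49%), and that was SLC45A4. With the replicate number as a block within each line, edgeR had 12 carriers (8.16%) under it, against 5.83% of entries. DESeq2 with that block had 9 carriers (6.12%), against 6.79% of entries. DESeq2 called 0 of 147 and 0.00571% of all entries. The median fitted log2 fold change was 0.019 over the carriers and 0.005 over all entries, with 87 carriers above 0 and 60 below, and 146 of 147 lay within 0.5 of 0. SLC67A2 alone had dox libraries that did not overlap with those without dox, on the higher side, where 0.491% of all entries did, and 0 carriers were separate on the lower side, against 0.4%.

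No single carrier passed the edgeR test with dox after adjustment. SLC45A4, a carrier linked to polyamines and sugars, had 10.8 and 13.5 CPM in SLC7A2-line cells with dox and 9.24 and 9.36 without it, and 14.4 and 9.34 CPM in SLC7A1-line cells with dox and 7.94 and 7.89 without it. The dox library was the higher in each of the 4 same-numbered pairs. Such counts of pairs, here and below, are a description. The carriers were picked by their fitted values, and no share over all entries was taken. Its fitted log2 fold change was 0.48 ± 0.17 (SE), with an edgeR p of 0.0216 unadjusted and 1.000 adjusted. The haem carrier SLC48A1 had 37.3 and 33.0 CPM in SLC7A2-line cells with dox and 31.8 and 31.0 without it, and 34.6 and 25.9 CPM in SLC7A1-line cells with dox and 25.1 and 19.3 without it. Its value was 0.30 ± 0.14, also higher in 4 of 4 pairs. SLC67A2 (MFSD9) had 6.09 and 5.94 CPM in SLC7A2-line cells with dox and 4.68 and 4.49 without it, and 5.49 and 5.52 CPM in SLC7A1-line cells with dox and 3.82 and 5.00 without it, so all dox libraries lay above all others. SLC67A1, SLC4A7 (sodium-bicarbonate) and SLC25A36 (pyrimidine nucleotides) completed the upper end at 0.32, 0.30 and 0.30, with SEs of 0.28 to 0.32. Without both SLC7A2-line libraries numbered 2 SLC25A36 turned to -0.03 and SLC4A7 was 0.16, and without the SLC7A2 dox library numbered 2 alone SLC4A7 was 0.013.

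SLC2A5, the fructose transporter, was the only carrier called in any of the dox fits run with DESeq2 or edgeR, and only by DESeq2 with a block. It had 117 and 68.5 CPM in SLC7A2-line cells with dox and 149 and 74.5 without it, and 103 and 150 CPM in SLC7A1-line cells with dox and 165 and 182 without it. The groups overlapped, but the dox library was lower in 4 of 4 same-numbered pairs, by 0.12 to 0.69 on the log2 scale. The fitted value was -0.37 ± 0.25 (SE, edgeR adjusted p = 1.000). With the replicate number as a block within each line DESeq2 called it (-0.36 ± 0.09, adjusted p = 0.0217), as 1 of 147 carriers (0.680%) against 0.606% of all entries, and edgeR with the same block did not (adjusted p = 0.832). Lower values without a call were also fitted for SLC22A31, SLC25A42, which imports coenzyme A, the zinc carrier SLC39A13 and the fatty acid transporter SLC27A1, at -0.39, -0.27, -0.26 and -0.26. SLC27A1 was at -0.39 without both SLC7A2-line libraries numbered 2. By compartment, 10 of 12 lysosomal or endosomal carriers were fitted above 0 with dox (median 0.04), 23 of 37 mitochondrial ones (0.05), 25 of 45 of the plasma membrane (0.01) and 14 of 30 of the ER or Golgi (-0.01), with 0 calls by edgeR or DESeq2 in each. Of all carriers 59.2% were above 0, and of all entries 51.7%. The lysosomal or endosomal median was 0.19 and 0.03 in SLC7A1-line pairs numbered 1 and 2, and 0.08 and -0.05 in those of the SLC7A2 line.

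**Figure D3:**
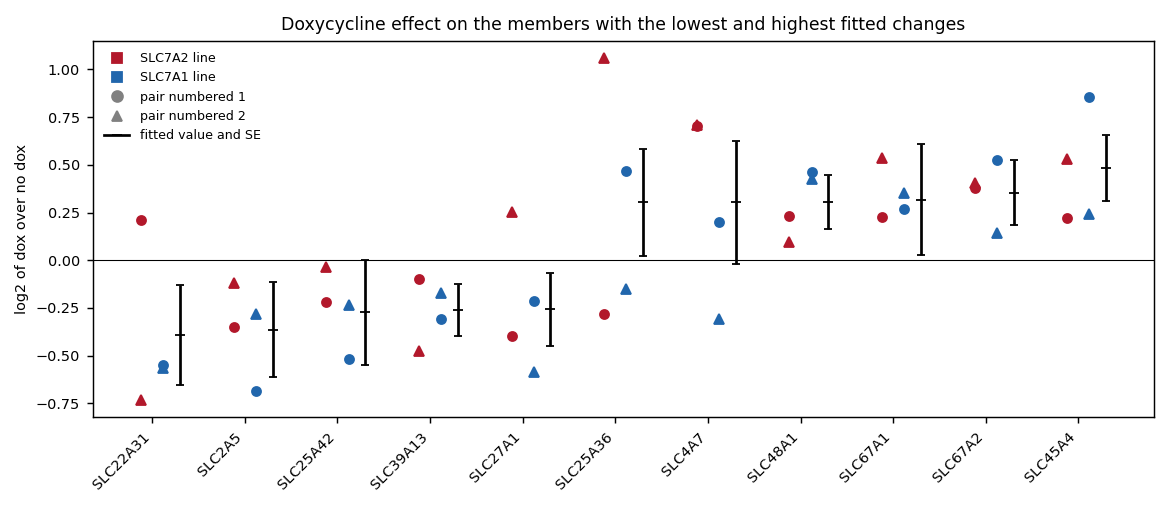
Log2 ratio of dox over no dox (y) in each of 4 same-numbered pairs for the 11 carriers with the lowest and highest fitted values (x; SLC23A2 not drawn), coloured by line, with the fitted value and its SE as a black bar. All 4 points lie below 0 for SLC2A5, SLC25A42 and SLC39A13 and above 0 for SLC48A1, SLC67A1, SLC67A2 and SLC45A4, with spreads of similar size to the values.

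Within the SLC7A2 line edgeR called 0 of 147 carriers and 0% of entries, with 0 carriers and 224 entries under an unadjusted p of 0.05, and DESeq2 called 0 carriers and 0.0571% of entries. The highest fitted values were those of SLC4A7 (0.71 ± 0.44), SLC25A24, a calcium-regulated carrier of ATP-Mg and phosphate (0.56 ± 0.51), and the myo-inositol transporter SLC5A3 (0.53 ± 0.52), all ± SE. SLC25A24 had 8.06 and 26.6 CPM with dox, against 10.4 and 13.1 CPM without it, and SLC5A3 had 9.63 and 27.1 CPM with dox, against 10.4 and 15.1 CPM without it. Both were high in the dox library numbered 2, the one with 4947 CPM of the construct, and without both libraries numbered 2 their values were -0.37 and -0.12. SLC4A7 was at 0.18 without the dox library numbered 2 and at 1.23 without the library numbered 2 that had no dox. The lowest values were those of SLC12A4 (KCC1, -0.35 ± 0.19) and SLC27A5 (-0.31 ± 0.25, and -0.19 without both libraries numbered 2). SLC12A4 had 10.4 and 9.42 CPM with dox, against 12.9 and 12.4 CPM without it, and did not overlap. With 2 libraries on each side, 8 of 147 carriers, or 5.44%, were separate on the lower side, against 9.7% of all entries.

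Within the SLC7A1 line edgeR likewise called 0 of 147 carriers and 0% of entries, with 0 carriers and 222 entries under an unadjusted p of 0.05, and DESeq2 called 0 carriers and 0.0514% of entries. After SLC45A4 at 0.58 ± 0.26, the highest fitted values were those of SLC37A1 (0.51 ± 0.27), SLC48A1 (0.45 ± 0.21) and the taurine transporter SLC6A6 (0.38 ± 0.29). SLC37A1, of the glucose 6-phosphate family, had 21.0 and 14.9 CPM with dox, against 14.6 and 10.6 CPM without it. SLC6A6 had 32.0 and 35.4 CPM with dox, against 17.8 and 34.2 CPM without it, so 1 library without dox set its value, which was -0.02 without that library. The lowest values were those of SLC22A31 (-0.56 ± 0.39), SLC2A5 (-0.46 ± 0.37) and SLC37A3 (-0.40 ± 0.38). Of 12 lysosomal or endosomal carriers 10 were above 0 in this line (median 0.14), and 7 of 12 were above 0 in the SLC7A2 line (median 0.02). Over all entries 49.2% were above 0 in the SLC7A1 line and 51.3% in the SLC7A2 line.

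The difference between the dox effects, SLC7A2 line minus SLC7A1 line, was called for 0 of 147 carriers and 0% of entries by edgeR, with 0 carriers and 222 entries under an unadjusted p of 0.05, and for 0 carriers and 0.114% of entries by DESeq2. The median difference was -0.016 over the carriers and 0.006 over all entries. The largest fitted differences were those of SLC5A3 at 0.92 ± 0.73 and SLC4A7 at 0.80 ± 0.62 on the upper side, and SLC6A6 at -0.58 ± 0.41 and SLC12A4 at -0.52 ± 0.27 on the lower side (SE), apart from SLC23A2. SLC5A3 was at 0.28 without both SLC7A2-line libraries numbered 2, and SLC4A7 was at 0.28 without the SLC7A2 dox library numbered 2.

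Fitted values spread more widely between the lines than with dox, and 132 of 147 carriers lay within 0.5 of 0. The median log2 fold change of the SLC7A2 line over the SLC7A1 line was 0.096 over the 147 carriers, against -0.004 over all entries and 0.022 over genes with a symbol, with 97 carriers above 0 and 50 below. Without both SLC7A2-line libraries numbered 2 the median was 0.033, with 84 carriers above 0. The main test, edgeR, called 0 of 147 carriers and 0% of entries, with 22 of 147 carriers and 2242 of 17503 entries under an unadjusted p of 0.05. DESeq2 called 7 of 147 carriers, or 4.76%, against 1.99% of all entries, all 7 higher in the SLC7A2 line. Libraries of the lines did not overlap for 13 carriers that were higher in the SLC7A2 line, or 8.84%, against 4.35% of entries, and for 6 that were lower, or 4.08%, against 5.11%. In bulk RNA a change in the share of cells and a change in RNA per cell cannot be told apart.

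**Figure D4:**
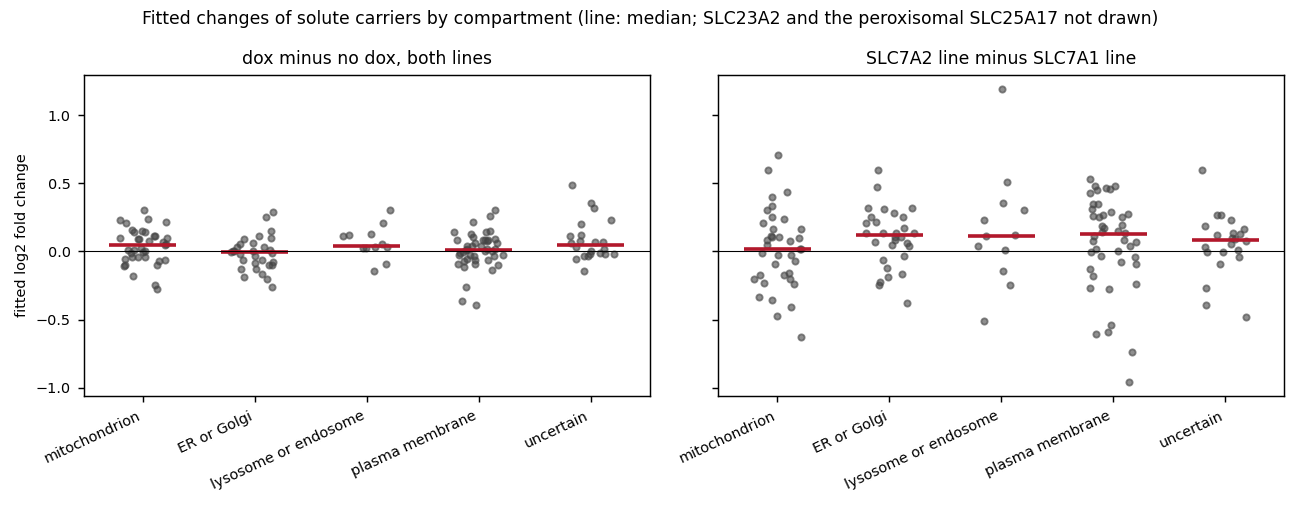
Fitted log2 fold change (y) of each solute carrier by compartment (x), with dox over no dox on the left and the SLC7A2 line over the SLC7A1 line on the right, and the median of each compartment as a red line. The spread is wider between the lines than with dox, and the medians between the lines are 0.14 for the plasma membrane, 0.12 for the ER or Golgi and 0.02 for mitochondria.

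The 7 carriers called by DESeq2 serve different compartments. SLC35B1, which exchanges ATP for ADP across the ER membrane, had 58.3 and 72.2 CPM in SLC7A2-line cells with dox and 60.4 and 73.0 without it, and 44.5 and 50.9 CPM in SLC7A1-line cells with dox and 39.3 and 40.3 without it. The groups did not overlap, and the fitted log2 fold change was 0.60 ± 0.12 (SE, edgeR adjusted p = 0.315, DESeq2 adjusted p = 0.00326). SLC25A20, the carnitine/acylcarnitine carrier that admits long-chain fatty acids to the mitochondrial matrix, had 20.2 and 24.0 CPM in SLC7A2-line cells with dox and 17.9 and 21.9 without it, and 15.1 and 13.3 CPM in SLC7A1-line cells with dox and 13.7 and 13.3 without it. Its value was 0.60 ± 0.12 (DESeq2 adjusted p = 0.00984). SLC27A4, which takes up and activates fatty acids, averaged 34.3 ± 3.36 CPM in the SLC7A2 line and 23.8 ± 1.41 CPM in the SLC7A1 line (SD, n = 4 each), with a log2 fold change of 0.53 ± 0.11 (SE).

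The others were SLC35F6, SLC52A2, SLC5A6 and SLC66A2. SLC35F6, a lysosomal membrane protein, averaged 43.9 ± 4.14 CPM in the SLC7A2 line and 30.9 ± 3.97 CPM in the SLC7A1 line. The riboflavin transporter SLC52A2 averaged 129 ± 22.6 CPM in the SLC7A2 line and 92.5 ± 7.50 CPM in the SLC7A1 line. The biotin and pantothenate transporter SLC5A6 averaged 167 ± 24.9 CPM in the SLC7A2 line and 122 ± 11.1 CPM in the SLC7A1 line. SLC66A2 averaged 149 ± 7.17 CPM in the SLC7A2 line and 124 ± 4.84 CPM in the SLC7A1 line (SD, n = 4 each, for all 4 carriers). Both libraries numbered 2 exceeded both numbered 1 within the SLC7A2 line for SLC35B1, SLC25A20, SLC35F6, SLC52A2 and SLC5A6, and did not for SLC27A4 and SLC66A2. In SLC7A2-line libraries numbered 1 and 2, SLC52A2 averaged 113 and 145 CPM, and SLC5A6 149 and 186 CPM. Without both libraries numbered 2 all 7 kept a positive value, of 0.28 to 0.48, with 0.29 for SLC52A2 and 0.28 for SLC5A6. DESeq2 then called 0 carriers. On leaving out 1 library DESeq2 called 0 without the SLC7A2 library without dox numbered 2, the SLC7A1 dox library numbered 1 or the SLC7A1 library without dox numbered 1, 3 without the SLC7A2 dox library numbered 2, 4 without the SLC7A1 dox library numbered 2, and 6 to 10 in the other 3 cases.

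**Figure D5:**
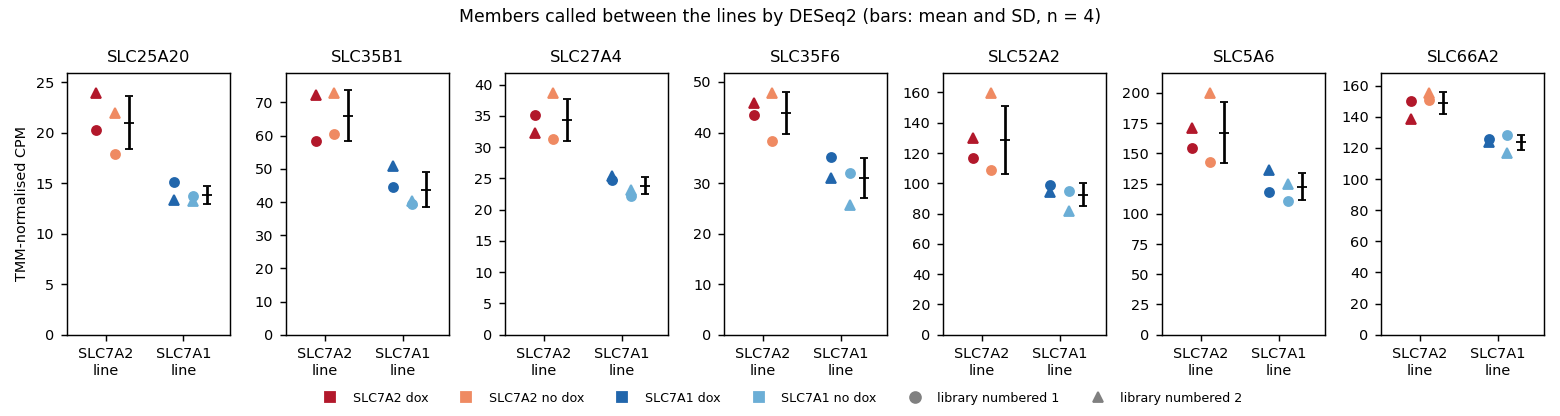
TMM-normalised CPM (y, from 0) of the 7 carriers that DESeq2 called, in the SLC7A2 line and the SLC7A1 line (x), with 1 point per library and a bar for the mean and SD of 4 libraries. In each panel all SLC7A2-line points lie above all SLC7A1-line points, for example 58.3 to 73.0 against 39.3 to 50.9 CPM for SLC35B1.

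On the lower side neither edgeR nor DESeq2 called a carrier in the fits of line and dox. SLC22A31 averaged 1.64 ± 0.36 CPM in the SLC7A2 line and 3.23 ± 0.72 CPM in the SLC7A1 line (SD, n = 4 each), without overlap (-0.95 ± 0.26 SE). SLC25A6 had 877 and 623 CPM in SLC7A2-line cells with dox and 903 and 681 without it, and 1157 and 939 CPM in SLC7A1-line cells with dox and 1125 and 864 without it. The groups overlapped (-0.41 ± 0.15 SE, edgeR adjusted p = 0.364, DESeq2 adjusted p = 0.178), and without both SLC7A2-line libraries numbered 2 the value was -0.20. SLC25A3 was lower without overlap by a small amount, at 385 ± 11.2 CPM in the SLC7A2 line and 434 ± 18.8 CPM in the SLC7A1 line (SD, n = 4 each). SLC2A5 averaged 102 ± 37.8 CPM in the SLC7A2 line and 150 ± 34.1 CPM in the SLC7A1 line (SD, n = 4 each), with its lowest values in both SLC7A2-line libraries numbered 2. Its log2 fold change was -0.54, and -0.16 without them. SLC24A1, SLC25A42, SLC27A1 and SLC27A3 had fitted values of -0.74 to -0.59, and without both SLC7A2-line libraries numbered 2 these were -0.56 for SLC24A1, -0.21 for SLC25A42, -0.40 for SLC27A1 and -0.38 for SLC27A3. Without the SLC7A1 library without dox numbered 1 SLC27A3 was at -0.24. SLC27A1 and SLC27A3 are of the same fatty acid transport family as SLC27A4, and thus lay on the other side of 0. On the upper side, SLC16A1 had 119 and 206 CPM in SLC7A2-line cells with dox and 113 and 153 without it, and 89.5 and 114 CPM in SLC7A1-line cells with dox and 82.0 and 136 without it, and the groups overlapped (0.48 ± 0.23 SE). SLC25A13 at 0.71 ± 0.35, SLC45A3 at 0.60 ± 0.28 and the zinc importer SLC39A6 at 0.46 ± 0.27 were likewise high in libraries numbered 2 of the SLC7A2 line. Without both of these libraries the values were 0.14 for SLC16A1, 0.35 for SLC25A13, 0.035 for SLC45A3 and 0.069 for SLC39A6.

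Summed over the set, the carriers made 5260 to 5397 TPM in the SLC7A2 line and 4825 to 5197 TPM in the SLC7A1 line. In the SLC7A2-line libraries numbered 1 alone the sum was 5260 to 5357 TPM. TPM was not TMM-normalised, and the 2 scales can order libraries differently. SLC25A5 had 690 TPM and 525 CPM in the SLC7A2 dox library numbered 2. In the SLC7A1 dox library numbered 2 it had 602 TPM and 565 CPM. The sums in this paragraph are thus given on the TPM scale only. The plasma membrane carriers made 1096 to 1293 TPM in the SLC7A2 line and 962 to 1019 TPM in the SLC7A1 line, and the mitochondrial ones made 2489 to 2655 TPM in the SLC7A2 line and 2452 to 2782 TPM in the SLC7A1 line. Among classes of substrate, 8 of 9 carriers of nucleosides, nucleobases and vitamins and 8 of 9 of nucleotide sugars and the sulfate donor were fitted above 0 between the lines, with medians of 0.17 and 0.14, and 14 of 18 of amino acids and derivatives, with a median of 0.17. Without both SLC7A2-line libraries numbered 2 these counts were 6, 8 and 11, with medians of 0.086, 0.032 and 0.11. DESeq2 called 2 of the first of these classes, SLC52A2 and SLC5A6, and 0 of the other 2, against 1.99% of all entries, and neither call held without those libraries. Carriers outside the SLC naming, such as pyruvate carriers, sideroflexins and the lysosomal cystine exporter, gave 31 tested genes. Of these edgeR called 0 in every comparison and DESeq2 called 2 between the lines, against 1.99% of all entries. These were LETM1, of mitochondrial ion exchange (0.40 ± 0.09), and SLCO4A1, an organic anion transporter (0.45 ± 0.11 SE), both higher in the SLC7A2 line. LETM1 had 35.9 and 36.7 TPM in SLC7A2-line libraries numbered 2, 31.5 and 29.9 in those numbered 1, and at most 25.3 in the SLC7A1 line. For SLCO4A1 these were 49.8 and 55.0, 40.3 and 38.7, and at most 32.8 TPM. Whether these 2 calls hold without the SLC7A2-line libraries numbered 2 was not examined.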

How the data were processed

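Poly(A) RNA of 8 libraries was sequenced, 2 in each of 4 groups taken from the sample titles. Per the file headers the authors deposited for each gene an expected count, TPM, FPKM and lengths; TPM gave levels here, expected counts gave all tests, and FPKM and length columns were not used in tests. The submitters' processing notes list RSEM 1.3.1, Bowtie2 2.3.4.3, HISAT and DESeq2 1.4.5 with the build hg38, without roles. Overlapping genes are uncertain, because use of strand is not stated in these sources. Genes missing from a file were taken as 0. Of 15386 Entrez numbers 15340 matched a symbol. A chi-square per entry of 19.7 to 43.4 between libraries of a group exceeds sampling noise.

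Expected counts were rounded. filterByExpr (minimum count 10, minimum total 15) kept 17503 entries, all 147 carriers among them. After TMM scaling, the main test was edgeR's quasi-likelihood F test (edgeR 4.0.16, R 4.3.3), with p-values adjusted by Benjamini-Hochberg over all entries at 0.05. Dox across both lines and the lines against each other used additive fits of line and dox, and the other comparisons used 1 fit of 4 group means. The SE was derived from the log2 fold change and its F statistic, and CPM of single carriers are TMM-normalised. The scripts were tested on simulated data. Alternatives were DESeq2 1.42.0, its size factors, no filter, Entrez entries alone, a replicate block, and leaving out libraries. Within a line, differences between numbers 2 and 1 correlated between dox and no dox over all entries at 0.312 (SLC7A2 line) and 0.197 (SLC7A1 line). The numbers were thus taken to pair dox with no dox in the replicate block and in values given by pair. The main edgeR fits had no block, so their p-values and SEs are from unpaired tests. SDs and SEs reflect scatter between libraries, which may be technical, and the floor of 3 counts covers counting error only.

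Named carriers are those called, the 6 highest and 6 lowest fitted values per comparison at a mean log2 CPM of at least 1, those that DESeq2 calls with the block, and the 3 highest by class and compartment; other levels and values were chosen after they were seen. Carriers, classes and lists were chosen with earlier results of these data known, and 12 renamed symbols were classed once the files had been read.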

Additional observations from a re-analysis of the deposited data

How the results depend on the processing

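The edgeR count of carriers stayed at 0 in all comparisons under RLE size factors, no low-count filter, Entrez entries alone and each omission of 1 library, and DESeq2 also gave 0 in every dox comparison. With the replicate block, DESeq2 called 1 for dox across both lines. Between the lines DESeq2 called 7 (0 to 10 on leaving out 1 library, 0 without both SLC7A2-line libraries numbered 2). The replicate number as a term across the lines was added after seeing the data. With it edgeR called 2 carriers (SLC35B1 and SLC25A6), or 1.36%, against 256 entries, or 1.46%. DESeq2 with this term called 14 carriers (10 higher and 4 lower), or 9.52%, against 1480 entries, or 8.46%. Both shares of carriers were near those of all entries. The labels do not tie numbers across the lines. Over all entries the number difference correlated at -0.024 to 0.150 between groups of different lines, and at 0.011 with dox and 0.068 without it between groups of the same treatment. The block changed no other call.

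The medians of the carriers on leaving out 1 library ran from 0.0011 to 0.047 for dox across both lines, 0.0066 to 0.025 in the SLC7A1 line, -0.011 to 0.085 in the SLC7A2 line, -0.068 to 0.012 for the difference and 0.077 to 0.116 between the lines. For dox in the SLC7A2 line the median was 0.0021 with no filter, 0.0050 with the block in edgeR and 0.0017 with it in DESeq2. The median difference was -0.033 with no filter and 0.0031 without both SLC7A2-line libraries numbered 2, where that between the lines was 0.033. The cause was not tested.

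Of 69 values of named carriers 49 moved by over 1.5 times and 16 changed sign on leaving out 1 library, and 29 moved by over 1.5 times without both SLC7A2-line libraries numbered 2. These and the counts by class without those libraries were added after seeing the data. Without both SLC7A2-line libraries numbered 2 the sign changed for SLC25A36 (dox across both lines -0.026, dox in the SLC7A2 line -0.280), SLC25A24 (dox in the SLC7A2 line -0.372, difference -0.286), SLC5A3 (dox in the SLC7A2 line -0.116) and SLC23A2 (between the lines -1.56). On leaving out 1 library, dox across both lines ran from -4.05 to 0.70 for SLC23A2 and -0.016 to 0.54 for SLC25A36. Dox in the SLC7A1 line ran from -10.24 to 5.51 for SLC23A2, -0.79 to 0.18 for SLC5A3, -0.064 to 0.72 for SLC67A1 and -0.019 to 0.92 for SLC6A6. Dox in the SLC7A2 line ran from -0.54 to 1.18 for SLC25A24, -0.20 to 0.98 for SLC25A36, -0.026 to 0.78 for SLC25A46, -0.43 to 0.021 for SLC29A3, -0.70 to 0.31 for SLC2A5 and -0.40 to 1.09 for SLC5A3. The difference ran from -5.18 to 11.82 for SLC23A2, -0.46 to 1.27 for SLC25A24, -1.03 to 0.37 for SLC25A25 and -0.010 to 1.49 for SLC5A3. Carriers near 1 TPM rest on few counts. After adjustment over all entries edgeR did not call some differences several times their SE. An example is SLC35B1 between the lines, with 4 libraries per line and an unadjusted edgeR p of 0.000946.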
